A study of Mus musculus with 2 samples.

Results

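Langerhans cells and other antigen-presenting cells were studied in single-cell RNA-seq data from mouse back skin. They were chosen by their own transcripts: a kept cell was a member when its unique molecular identifiers (UMIs, tags that count single RNA molecules) for Cd74, H2-Aa and H2-Ab1 summed to at least 20, those for Krt5 and Krt14 to fewer than 30, and those for Cd3e, Cd3d and Cd3g to fewer than 2. This rule found 157 members among 7564 kept cells, 75 in the control library and 82 in the miR-205 inducible library. Of these, 107 carried a Cd207 (langerin) UMI.

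Each library came from 1 mouse at postnatal day 53, and the mice were matched for sex. Both mice carried a K14-H2BGFP allele, which marks keratin 14 expressing cells with nuclear green fluorescence, and both are labelled strain C57BL/6. The miR-205 inducible mouse carried pTRE2-miR-205, made by injection into FVB mice, together with Krt14-rtTA, and ate doxycycline chow for 4 days from postnatal day 49. The extraction protocol says that the control mouse ate doxycycline as well, whereas its characteristics call it untreated. The Krt14 promoter drives rtTA in keratinocytes and not in leukocytes, so the induced gene is not switched on by design in the cells described here. Dead cells were removed with DAPI and the rest were sorted on surface proteins and H2BGFP to epidermal, follicle and dermal cells at 3:5:2, aiming at 5000 cells a library. The labels name epithelial and dermal cells and no immune gate, so the sort sets how many antigen-presenting cells were captured. With 1 library per group no test between the mice was possible. All intervals below are 95% intervals that cover counting error only, and no spread between animals was measured.

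Langerhans cells are the resident antigen-presenting cells of the epidermis, and they take their name for the C-type lectin langerin, which forms Birbeck granules. They depend on signals through Csf1r and on transforming growth factor beta, and they hold on to keratinocytes through E-cadherin and Epcam. The dermis holds other class II positive cells, among them type 1 and type 2 dendritic cells and macrophages. Class II molecules (H2-A and H2-E in this species) are loaded with peptide in the lysosome, where the Cd74 invariant chain is removed by cathepsins and H2-DM edits the peptides.

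The agent of the study is a small RNA that is too short to be counted as a gene here. Its mature sequence is shown because its seed is the part that pairs with target transcripts. RefSeq places mmu-miR-205-5p at chr1:193507503-193507524 on the minus strand of GRCm38.p6, and the capitals mark the seed, bases 2 to 8.
mmu-miR-205-5p: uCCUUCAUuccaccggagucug

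The class II genes that chose the members are known to share an enhanceosome at their promoters, where an X box family factor complex and NF-Y bind and recruit the co-activator Ciita. The promoter windows below show letters that 5 of the class II genes have in common, taken from RefSeq on GRCm38.p6, in the direction of the gene. The capitals mark TGANG, a letter pattern within the X region, followed by ATTGG, the inverted CCAAT letters, with their starts 20 to 30 bases apart. The window of H2-Aa is chr17:34287857-34287907 on the minus strand, that of H2-Eb1 is chr17:34305774-34305822, that of H2-DMb1 is chr17:34153095-34153144, that of H2-DMb2 is chr17:34145124-34145173 and that of H2-Ob is chr17:34238816-34238862, the last 4 on the plus strand.
H2-Aa: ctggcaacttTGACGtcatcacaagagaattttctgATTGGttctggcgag
H2-Eb1: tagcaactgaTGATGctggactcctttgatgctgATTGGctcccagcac
H2-DMb1: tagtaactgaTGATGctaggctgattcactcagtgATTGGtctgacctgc
H2-DMb2: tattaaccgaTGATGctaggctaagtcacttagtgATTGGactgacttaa
H2-Ob: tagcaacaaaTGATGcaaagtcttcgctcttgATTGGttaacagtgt

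Among 16 genes looked up, 13 had a window of 250 bases before to 50 bases after their start, and 5 of these held the spaced pair on their own strand. The class II genes H2-DMa and H2-Oa had windows without the pair, and H2-Ab1 had no window. Over all 32851 promoter windows, 1.61% held the pair on the strand of the gene and 2.79% on either strand. ATTGG alone stood on either strand in 37.4% of windows and TGANG in 89.4%, so neither is rare without the spacing. The spacing was chosen after these promoters had been read. A match describes letters and is not a binding site, and the window of Cd207 held neither the pair nor ATTGG.

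Members made up 1.91% (1.50 to 2.38) of 3936 kept control cells and 2.26% (1.80 to 2.80) of 3628 kept induced cells. The difference, induced minus control, was 0.355 percentage points with an interval from -0.291 to 1.01, which includes 0. Members had a median of 9234 UMIs (942 to 31668) in the control library and 10247 (586 to 36329) in the induced library, so depth was similar in both. The class II sum that selected them ranged from 21 to 2374 UMIs in control members, with a median of 864, and from 24 to 2910 in induced members, with a median of 878. Of the 157 members, 144 had a sum of at least 200, so few stood near the threshold.

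The nearest kept cells outside the threshold had class II sums of 19, 19, 19, 19 and 18 UMIs, and the nearest members had 21, 24, 38, 56 and 71. Of the 5 nearest members, the cell with 24 had only 586 UMIs in all, 9 of them Cd207, and the cell with 71 had 727 UMIs. The cells with 21 and 56 held 92 and 1006 UMIs of keratinocyte-list genes (keratins 5, 14, 15, 17, 1, 10 and 79 with junction genes of the epidermis) and no Cd207. These were the only members with 50 or more such UMIs, and the values that moved most with them are given again without them. Leaving them out gave 272 genes past 2-fold higher and 247 lower in induced members, 241 and 224 in induced members without Cd207, and 547 higher and 567 lower in carriers of Cd207 in both libraries, in the comparisons described further on. The keratin limit left out 63 further kept cells with a class II sum of at least 20, of which 10 had at least 5 Cd207 UMIs, and the Cd3 limit left out 1. The libraries had 11 barcodes in common, and none of them was a member in both.

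Cd207 (ENSMUSG00000034783) was detected in 54 of 75 control members, or 72.0% (60.4 to 81.8), and in 53 of 82 induced members, or 64.6% (53.3 to 74.9). The difference was -7.37 percentage points with an interval from -21.4 to 7.19. With each cell thinned to 2000 UMIs (1 control and 7 induced members were too shallow for this), the shares were 70.3% and 62.7%. At least 5 Cd207 UMIs were counted in 52 control and 48 induced members.

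Free RNA can place a UMI in a cell that does not express the gene. Keratinocytes were taken as kept cells with at least 100 Krt5 and Krt14 UMIs and a class II sum under 20. Cells rich in both keratin and class II RNA are thus not part of this background. In keratinocytes Cd207 was detected in 75 of 2102 control cells (3.57%) and 43 of 1549 induced cells (2.78%), at median depths of 14331.5 and 15006 UMIs. After thinning to 2000 UMIs these shares were 0.285% and 0.323%. Among T cells, taken as kept cells with at least 2 Cd3 UMIs and fewer than 30 keratin UMIs, Cd207 was found in 2 of 39 control cells and in 0 of 83 induced cells, which allows a share of up to 3.61% of cells with a UMI (3 counts of the total). Of the 142 Cd207 UMIs in control T cells, 141 lay in 1 cell, so that cell does not stand for background. Fibroblasts carried Cd207 in 3 of 119 and 5 of 159 cells. The member shares stood above these background shares, whereas the 3 induced members and 1 control member with a single Cd207 UMI cannot be told from background.

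Cd207 detection moved with the mitochondrial share of a cell. Members with Cd207 had a median mitochondrial share of 5.65% in control and 5.78% in induced cells, against 4.14% and 4.03% in members without it. When only cells under 5% mitochondrial UMIs were kept, 29 control and 34 induced members were left, and 44.8% and 47.1% of them carried Cd207. The mixture of member kinds thus depended on the cell filter. Its cause was not tested.

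**Figure D1:**
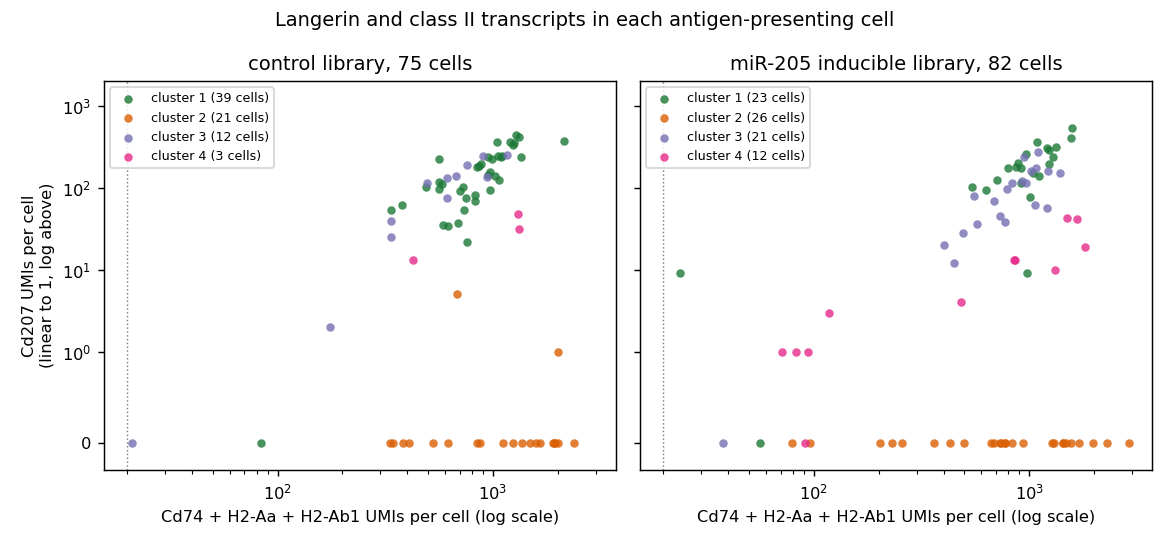
Cd207 UMIs (y axis, linear to 1 and log above) against summed Cd74, H2-Aa and H2-Ab1 UMIs (x axis, log scale) for each member of the control library (left, 75 cells) and the miR-205 inducible library (right, 82 cells), coloured by cluster; the dotted line marks the threshold of 20. Most members stand above 200 class II UMIs, and cells of cluster 2 lie almost all at 0 Cd207 while most cells of clusters 1 and 3 lie above 10.

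The members were checked against leukocyte and other lineage markers. Tyrobp, an adaptor of myeloid receptors, was detected in 74 of 75 control and 77 of 82 induced members, and Spi1, the transcription factor of the myeloid lineage, in 71 and 69. Genes of the fibroblast, mast cell, neutrophil and melanocyte lists did not reach 20 UMIs over the members of both libraries. T cell list genes were counted at 3 or more UMIs in 5 control and 4 induced members, and endothelial list genes at 5 or more in 1 control member. B cell genes Cd79a, Cd79b, Ms4a1 and Pax5 had 0 UMIs, whereas Ighm, the immunoglobulin mu heavy chain, had 43 UMIs in 25 control and 64 UMIs in 25 induced members. The part of Ighm-carrying cells in the results was not tested. The members thus carried myeloid and class II genes, as their label says, while the Langerhans markers went mostly with Cd207.

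The genes that set members apart from all other kept cells are a description, since the rule read the same cells. Of 984 genes with at least 200 UMIs over the members, 347 (35.3%) were over 2-fold higher in members in both libraries. Led by the smaller of their 2 log2 ratios, the top 10 were Lyz1, C1qb, Cybb, Wfdc17, Cd86, Adgre1, Cd207, Gpr141, C1qa and Ccl6. Cd86, a co-stimulatory ligand for T cells, stood at 958 CPM (UMIs of a gene per 1000000 UMIs of the population) in control members and 585 in induced members and had a UMI in 87.3% of members against 0.648% of other kept cells. Lyz1 (lysozyme, near-identical to Lyz2, so that reads may be shared) stood at 300 and 291 CPM in members and at 0.120 and 0.0899 CPM in other cells. Cd207 stood at 10549 and 7520 CPM against 23.7 and 11.6. Ccl6 had 0 UMIs in members with Cd207 and stood at 213 CPM in control and 840 CPM in induced members without it. C1qb was counted in both kinds, at 21.0 CPM with and 380 CPM without Cd207 in control members and at 103 and 395 CPM in induced members.

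Members with Cd207 were compared with members without it inside each library, which gives the same contrast once in each mouse. Only Cd207 defined this split. Of 6003 genes tested, 525 (8.75%) were over 2-fold higher in carriers in both libraries and 585 (9.75%) were over 2-fold lower in both. All 8 genes of the Langerhans list were over 2-fold higher in carriers in both libraries, Cd207 itself by construction, whereas none of the type 2 dendritic, macrophage or monocyte lists had that pattern except Csf1r.

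Mfge8, a secreted protein that bridges apoptotic cells to phagocytes, stood at 4692 CPM in control carriers and 4.09 CPM in control cells without Cd207, where 1 UMI was counted. In the induced library the values were 3624 and 22.1 CPM. The log2 differences were 9.58 (7.69 to 15.47) and 7.27 (6.37 to 8.57). Of the members with Mfge8, 50 of 51 in control and 43 of 46 in the induced library carried Cd207. Read the other way, 50 of 54 control and 43 of 53 induced carriers held Mfge8. Epcam, the adhesion molecule of Langerhans cells, stood at 1086 against 61.3 CPM in control and at 1042 against 384 CPM in induced members. The smaller induced difference (1.44 against 4.10 on the log2 scale) moved with 1 cell, the member with 1006 keratinocyte-list UMIs, which alone held 174 UMIs of Langerhans list genes. Without the 2 keratin-high members, Epcam stood at 46.0 CPM in control and 11.7 CPM in induced members without Cd207, and the differences were 4.5 (3.71 to 5.57) and 6.31 (5.11 to 8.36).

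Ltc4s, the leukotriene C4 synthase, was at 449 CPM in control carriers and at 0 in control cells without Cd207, and at 494 and 2.76 CPM in the induced library. H2-M2, a class I-like gene of Langerhans cells, was higher by 2.67 and 4.75 on the log2 scale in control and induced carriers. Runx3, a transcription factor that Langerhans cells need, was higher by 2.88 and 2.59, Cd24a by 3.02 and 2.93, and Ly75 (DEC-205, an endocytic receptor) by 2.30 and 4.02. Together these describe the carriers, summed in each library, as higher in the Langerhans list beyond the gene used to choose them, in both mice. Not every carrier shared the list. In cluster 4, described further on, 14 of 15 cells carried Cd207. There Ltc4s had 0 UMIs, Mfge8 was detected in 2 cells and H2-M2 in 1. Among single genes, the leading ones after Cd207 and Mfge8 were Lpar3, Ltc4s, Ptgs1, Plek2, Hvcn1, Rgs2, St14 and Tbc1d4. Ptgs1, the constitutive cyclooxygenase, had a UMI in 67.3% of carriers and in 0% of the others, and Lpar3, a lysophosphatidic acid receptor, in 71.0% and 0%. With 50 cells in the second group, a count of 0 does not show that the gene is absent there.

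**Figure D2:**
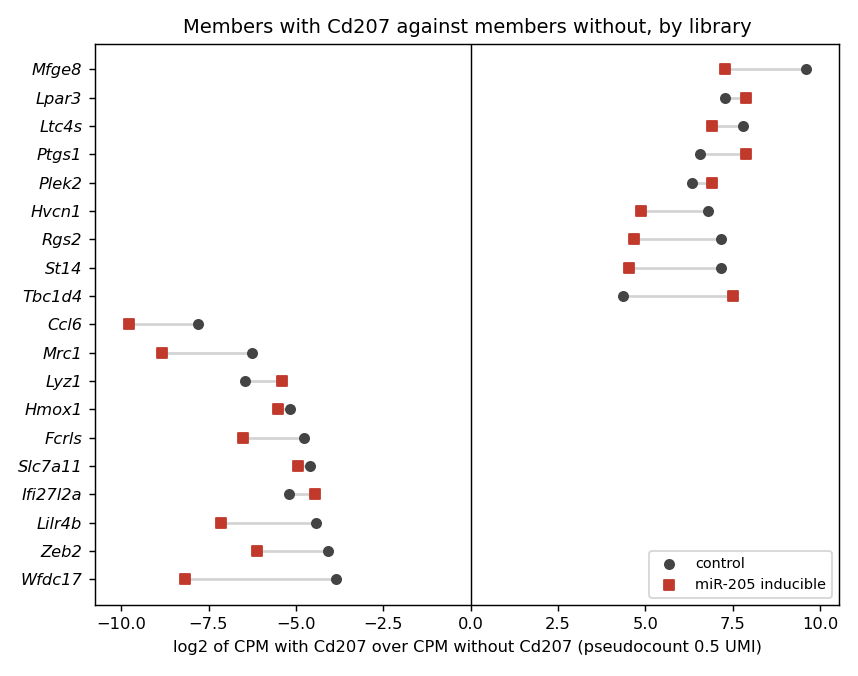
Log2 ratio of CPM in members with Cd207 over members without it (x axis, pseudocount 0.5 UMI) for the genes that differed most in both libraries, Cd207 left out (y axis), with control as circles and miR-205 inducible as squares. Mfge8 reaches 9.58 in control and 7.27 in induced cells, and both symbols of every gene lie on the same side of 0.

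Some genes tied to the upkeep of Langerhans cells in the epidermis were higher in carriers as well. The list holds receptors, but also E-cadherin and intracellular factors such as Runx3, Smad3, Id2 and Ahr. Of 10 such genes 7 were measured, and 4 of them were over 2-fold higher in carriers in both libraries and none lower, beside 8.75% and 9.75% of all genes. Csf1r, the receptor for interleukin 34 and colony-stimulating factor 1, stood at 444 against 98.1 CPM in control and 452 against 158 CPM in induced members. Tgfbr1, the type 1 receptor for transforming growth factor beta, stood at 82.2 against 8.18 CPM and at 102 against 8.29 CPM. Cdh1 (E-cadherin) was higher by 1.43 and 1.02 on the log2 scale. The remaining gene of the 4 was Runx3, which was already counted in the Langerhans list. Id2 and Ahr were not among the 4. They were lower in cluster 1 (60 of 62 cells with Cd207) than in cluster 2 (2 of 47), both described further on. Id2 stood at 1152.5 against 2014 CPM in control and 748 against 976 CPM in induced cells. Ahr stood at 121 against 381 CPM and at 166 against 212 CPM.

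The class II genes used by the rule differed between carriers and other members by -0.12 to 0.59 on the log2 scale, which is a description because they chose the members. H2-Eb1, which the rule did not use, stood at 20633 against 17700 CPM in control and 20283 against 13095 CPM in induced members (0.22 and 0.63). Per cell and scaled to 10000 UMIs, its median was 220.0 with and 180.0 without Cd207 in control members, and 207.3 and 103 in induced members. Of 11 measured genes of the class II pathway, 2 were over 2-fold higher in carriers in both libraries and none lower, beside 8.75% and 9.75% of all genes. These were Ciita, the class II co-activator, at 254 against 98.1 CPM and 241 against 47.0 CPM (1.35 and 2.32), and H2-Oa, a subunit of the H2-O inhibitor of peptide loading (1.41 and 1.10). Lgmn, a lysosomal protease, was lower, at -0.87 and -2.34. Cd86 was higher in carriers by 1.41 and 1.51, whereas Cd274 (PD-L1) was lower, at -3.89 and -3.12, and of 8 measured co-stimulatory genes 1 was over 2-fold higher and 4 over 2-fold lower in carriers in both, beside the same shares of all genes.

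Many type 2 dendritic, macrophage and monocyte genes were higher in members without Cd207, but not all. C1qa, of the macrophage list, was common in carriers: 35 of 42 control and 29 of 35 induced members with C1qa carried Cd207. Over 2-fold lower in carriers in both libraries were 5 of 8 measured type 2 dendritic genes, 7 of 12 macrophage genes and 5 of 5 monocyte genes, beside 9.75% of all genes. Cd209a, a DC-SIGN family lectin (near copies such as Cd209d make its counts uncertain), stood at 138 CPM in control carriers and 1803 CPM in control cells without Cd207, and at 1.92 and 973 CPM in the induced library. Mrc1, the mannose receptor, stood at 9.56 against 801 CPM and at 0 against 437 CPM. Lyz2 stood at 507 against 4578 CPM and at 1081 against 10112 CPM.

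Cd209a and Mrc1 were found in the same cells. All 17 control members with Cd209a also held Mrc1, as did 15 of 17 in the induced library, and 1 cell in each library held both Cd209a and Cd207. Hmox1, Slc7a11 and Il1rn were also lower in carriers. Hmox1 (haem oxygenase) stood at 97.5 against 3524 CPM in control and 38.3 against 1808 CPM in induced members. Of 18 measured cytokine and chemokine genes, 10 were over 2-fold lower in carriers in both libraries and 2 over 2-fold higher. Over all genes the shares were 9.75% lower and 8.75% higher, so the count of 2 higher is near that of all genes. Those higher were Tnf (3.30 and 2.41 on the log2 scale) and Il18 (1.44 and 1.55).

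Members fell into 4 clusters when both libraries were clustered together, and clusters are called by number where their genes did not settle a name. Cluster 1 held 62 cells, 39 control and 23 induced, and 60 carried Cd207. Cluster 2 held 47 cells, 21 and 26, of which 2 carried Cd207. Cluster 3 held 33 cells, 12 and 21, of which 31 carried Cd207, and cluster 4 held 15 cells, 3 and 12, of which 14 carried Cd207. Genes that differed between the libraries took part in the clustering, so these sizes are not compared between the mice.

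Clusters 1 and 3 both held the Langerhans genes. Cd207 stood at 18754 CPM in cluster 1 and 11705 CPM in cluster 3, Mfge8 at 5694 and 3369 CPM, Epcam at 1630 and 924 CPM, and Ltc4s at 456 and 769 CPM. What told them apart were other genes. Ccr7, the receptor that guides cells to lymph nodes, stood at 184 CPM in cluster 1 and 6.90 CPM in cluster 3, and the chemokine Ccl22 at 475 and 13.8 CPM. Il1b stood at 4768 CPM in cluster 1 and 231 CPM in cluster 3. Of 19 stress genes that are known to respond to tissue dissociation, 13 were higher in cluster 3 and 6 lower, and 8 were past 2-fold higher and 0 past 2-fold lower, as were 415 and 356 of 4248 genes in all. Those higher included Jun at 724 against 199 CPM, Atf3 at 383 against 38.9 CPM and Hspa1a (near-identical to Hspa1b) at 873 against 13.5 CPM, the last detected in 10 of the 33 cells. Those lower included Fos, at 310 against 356 CPM, and Nfkbia, at 990 against 1308 CPM. No Langerhans marker was among the top 10 genes of either cluster, which without the 2 keratin-high cells were led by Tlcd1, Scin and Sult2b1 in cluster 1 and by Acsl3, Tspan2 and Jmy in cluster 3, so neither was given a cell type name.

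Cluster 2 was led by Cd209d, Ccl6, Cd209a, Cybb and Fn1, with Cd163 and Mrc1 also in its top 10. It raised both the type 2 dendritic list and the macrophage list, with 2 markers of each in the top 10, and so remained without a name. Cd209a stood at 1435 CPM in it against 0 in clusters 1 and 4, and Lyz2 at 8072 CPM against 72.7 CPM in cluster 1.

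Cluster 4 had Xcr1 and Wdfy4 in its top 10 genes and is called type 1 dendritic-like. Xcr1, the chemokine receptor of cross-presenting dendritic cells, was detected in 60.0% of its 15 cells and Wdfy4, which cross-presentation needs, in 80.0%. Clec9a, a receptor for dead cells, was detected in 53.3% of cluster 4 and had 0 UMIs in clusters 1, 2 and 3. Irf8, which directs this lineage, stood at 733 CPM against 201, 33.2 and 131 CPM in clusters 1, 2 and 3. Langerin was present in cluster 4 at 1448 CPM, with 9 of its cells at 5 or more Cd207 UMIs, while Epcam stood at 108 CPM and Mfge8 at 12.0 CPM. Lyz2, counted above among monocyte genes, was detected in all 15 cells of cluster 4, at 4056 CPM. Langerin by itself thus did not mark a single kind of cell here: in all, 2 of 3 control and 7 of 8 induced members with Xcr1 carried Cd207. Of the 12 induced cells of cluster 4, 5 had fewer than 1000 UMIs, at which depth few genes can be seen.

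**Figure D3:**
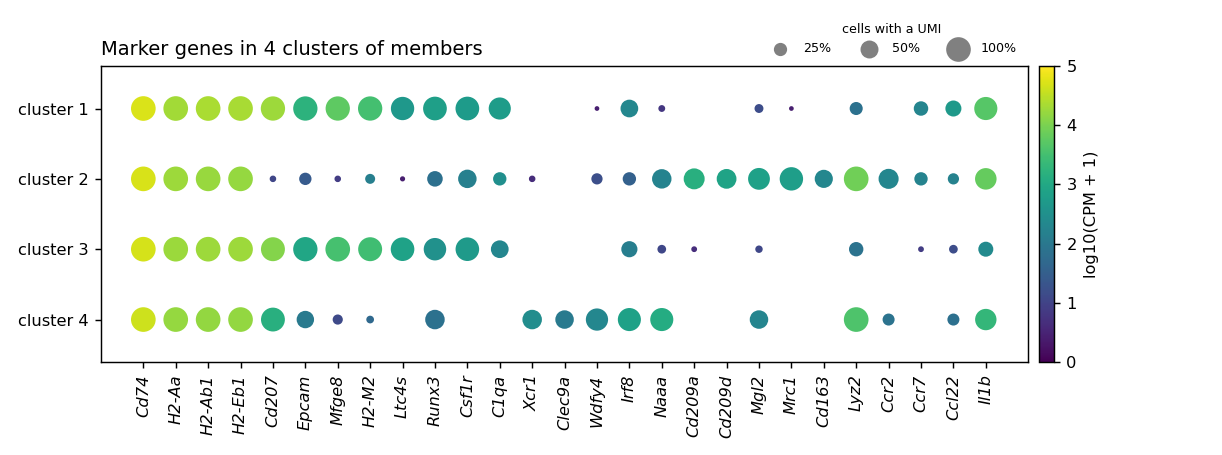
Marker genes (x axis) in the 4 clusters of members (y axis), both libraries together, with dot area for the percent of cells with a UMI and colour for log10 of CPM plus 1. Class II genes are high in every row, Langerhans genes in clusters 1 and 3, Cd209a and Mrc1 in cluster 2, and Xcr1, Clec9a and Wdfy4 in cluster 4.

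The mouse with the induced gene was then compared with the control mouse inside the members. Of the 6003 genes that reached 20 UMIs in members, 298 (4.96%) were past 2-fold higher and 233 (3.88%) past 2-fold lower in the induced library, with a median over all genes of -0.01 on the log2 scale. Within carriers of Cd207, 191 of 4653 genes (4.1%) were past 2-fold higher and 266 (5.72%) past 2-fold lower. Within members without Cd207, 272 of 3392 (8.02%) were past 2-fold higher and 218 (6.43%) past 2-fold lower. The smaller the group, the fewer UMIs lie behind each ratio, and many of these genes have few counts. A difference between these libraries is a difference between 2 mice, and mouse, library and miR-205 cannot be told apart.

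Antigen-presentation genes differed little over all members, and more in members without Cd207. None of 11 measured class II pathway genes was past 2-fold in either direction in all members, and their median was 0.00. H2-Eb1 stood at 19698 CPM in control and 17340 CPM in induced members (-0.18), H2-DMa at 805 and 1008 CPM (0.32) and Ciita differed by -0.34. Lgmn was the farthest from 0, at 285 and 160 CPM (-0.84), and within carriers it was past 2-fold lower (-1.91). Class I pathway genes had a median of 0.27, with none of 11 past 2-fold. Among co-stimulatory genes, Cd86 stood at 958 and 585 CPM (-0.71), and Tnfsf9 was the only 1 of 8 past 2-fold (1.02), from 19 and 45 UMIs. In members without Cd207, 1 of 10 measured class II pathway genes was past 2-fold lower and 0 higher (median -0.20). Of 10 class I genes 3 were past 2-fold higher and 0 lower (0.30), and of 8 co-stimulatory genes 0 higher and 2 lower (-0.72). Over all genes there, 8.02% were higher and 6.43% lower. The 2 keratin-high members are among these cells.

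Langerhans genes also stayed within 2-fold, with 0 of 8 past it and a median of -0.28 in all members and -0.14 in carriers. Per cell and scaled to 10000 UMIs, Cd207 in carriers ran from 0.561 through a median of 154 to 351 in control and from 3.80 through 116 to 333 in induced cells, so the ranges overlapped almost fully. H2-M2 was higher by 0.39 and Mfge8 lower, at -0.57 in induced members. Of the genes tied to the upkeep of Langerhans cells, 0 of 7 were past 2-fold, and Csf1r stood at 334 and 332 CPM.

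The genes that the study names as miR-205 targets were examined because of the agent, although the induced gene is driven in keratinocytes. Of 6 genes, 5 were measured and 0 were past 2-fold: Actb (0.26), Actn4 (0.41), Ctnna1 (-0.49), Rock2 (-0.26) and Piezo1 (0.33). Their median was 0.26 beside -0.01 for all genes. Actn1 had 9 UMIs and was not measured. A list of 20 actin and actin-binding genes of leukocytes had a median of 0.22, with Cotl1 alone past 2-fold (1.10) and within carriers at -0.29.

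The widest differences spread over most cells were in 2 genes, both higher in carriers and in members without Cd207. Gm8797 (ENSMUSG00000103034), a predicted gene, had 21 UMIs in control and 725 in induced members, a log2 difference of 4.87 (4.28 to 5.61). It was found in 19 of 75 control and 75 of 82 induced members, and the other kept cells differed by a like amount (4.65). Sh3bgrl3, a small SH3-domain-binding protein, stood at 383 CPM in control and 1268 CPM in induced members, a difference of 1.72 (1.54 to 1.92). Per cell and scaled to 10000 UMIs, it ran from 0 through a median of 3.39 to 10.6 in control and from 0 through 10.9 to 48.9 in induced members, so the groups overlapped while the middle of each lay apart. It was higher in carriers (1.86), in members without Cd207 (1.46) and in each of clusters 1 to 4 (1.94, 1.53, 1.48 and 1.38), whereas in other kept cells it was lower (-0.37).

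Il1r2, the decoy receptor that binds interleukin 1 without signalling, was lower in induced members, where 1416 UMIs were counted against 2713 in control members. This is 3535 against 1603 CPM, a log2 difference of -1.14 (-1.24 to -1.05), and the other kept cells differed by 0.10. Among carriers its level per 10000 UMIs ran from 0 through a median of 54.7 to 124 in control and from 0 through 20.8 to 76.6 in induced cells. It was lower in carriers (-0.95) and in members without Cd207 (-1.21), and within clusters 1, 2 and 3 the differences were -0.79, -1.03 and -0.84. In cluster 4 the difference was 0.76, from 5 and 19 UMIs. Ifitm2 (which has near copies such as Ifitm3) stood at 1345 and 594 CPM in members (-1.18) and was lower in both kinds of member (-2.03 and -0.88), beside 0.09 in other kept cells. Ktn1, which tethers kinesin to membranes, was lower, at -1.19 and -1.03 in the 2 kinds, beside -0.05. These genes were past 2-fold in members and near 0 in the rest of the skin, without a test.

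Il1b, an inflammatory cytokine whose signal Il1r2 dampens, was within 2-fold in all members (5498 and 3427 CPM, -0.68) and past it in carriers, from 4967 to 1702 CPM (-1.54). Per 10000 UMIs, Il1b in carriers had a median of 31.2 (0 to 198) in control and 1.75 (0 to 92.0) in induced cells. In members without Cd207 the difference was -0.17. Cxcl2, a neutrophil chemokine, went opposite ways in the 2 kinds, at -2.02 in carriers and 1.33 in members without Cd207. Within cluster 1, Il1b went from 6579 to 2336 CPM (-1.49, with an interval from -1.63 to -1.36). In cluster 2 it differed by -0.16, in cluster 4 by 0.84, and in cluster 3 by 0.64, from 18 and 49 UMIs. Cxcl2 differed by -1.67 in cluster 1, -1.87 in cluster 3 and 1.28 in cluster 2.

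**Figure D4:**
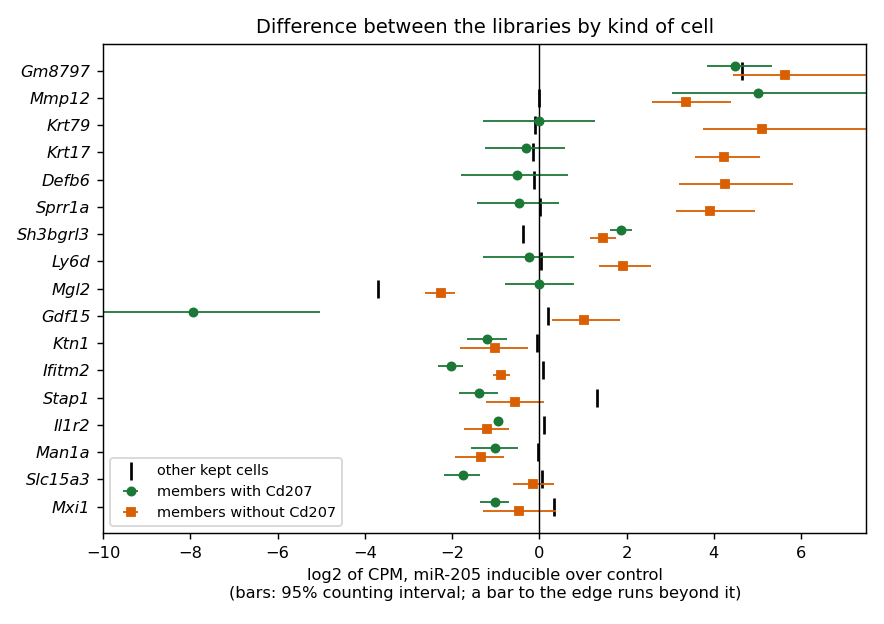
Log2 ratio of CPM, miR-205 inducible over control (x axis, bars give the 95% counting interval), for the genes farthest from 0 in members (y axis), in members with Cd207 (circles), members without (squares) and all other kept cells (black ticks); genes with 0 or few UMIs in a population have no symbol there. Gm8797 lies near 5 in all cells, Sh3bgrl3 and Il1r2 lie away from 0 in both kinds of member but not in the same way in other cells, and Krt17 and Krt79 are away from 0 in members without Cd207 only.

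Several of the remaining widest differences rested on few cells. Retnla, a product of alternatively activated myeloid cells, had 0 UMIs in control members and 272 in 4 induced members. Set against a floor of 3 UMIs in the control library, that is at least 78.8-fold higher. Ccl8 had 255 UMIs in 6 control members and 3 in 2 induced members. Mmp12, the macrophage elastase, had 13 UMIs in 4 and 239 in 13 members, with 88.7% of the induced UMIs in 5 cells. Gdf15 came from 5 cells in each library. Krt79 (3.41), Krt17 (3.37), Defb6 (2.90), Sprr1a (2.78) and Ly6d (1.70) are keratinocyte genes, of whose induced UMIs at least 91.5% came from 5 cells. Without the 2 keratin-high members their differences were 0.22, -0.33, -0.40, -0.31 and -0.71, and the keratinocyte list went from a median of 1.04 to -0.11.

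Monocyte and interferon genes stood higher in the induced library, some of them in few cells and others in many. Of 5 measured monocyte genes 4 were past 2-fold higher in all members, with a median of 1.40, beside 4.96% of all genes. Lyz2 stood at 1805 and 4778 CPM (1.40) and Ccr2, the receptor by which monocytes leave the bone marrow, at 50.8 and 104 CPM (1.02). By cluster, Lyz2 was higher in cluster 2 (1.26) and in cluster 4 (1.14, from 3 control and 12 induced cells). It was lower in cluster 1 (-1.44, from 34 and 9 UMIs) and in cluster 3 (-1.39, from 14 and 9 UMIs). Ly6c2 had 11 UMIs in 2 control cells and 127 in 6 induced cells. Of 9 measured interferon-response genes 5 were past 2-fold higher, with a median of 1.55. In members without Cd207, 3 of 5 monocyte and 6 of 9 interferon genes were past 2-fold higher, with medians of 1.14 and 1.86, beside 8.02% of all genes there, and without the 2 keratin-high members the same counts had medians of 1.19 and 1.69. In carriers the interferon median was -0.30. Ifi27l2a was the gene with the most UMIs among them, 98 in 15 control and 344 in 33 induced members, and Irf7 had 1 and 33 UMIs, the latter in 6 cells.

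Dendritic genes differed by kind. Of 6 measured type 1 dendritic genes 3 were past 2-fold higher in induced members, with a median of 0.98, beside 4.96% of all genes. These were Xcr1 (13 and 33 UMIs), Batf3 (5 and 17) and Wdfy4 (12 and 32), and cells with Xcr1 numbered 3 in control and 8 in induced members. Within cluster 4, which held 3 control and 12 induced cells, Xcr1 differed by 0.31 and Wdfy4 by 0.81, neither past 2-fold. Mgl2, a galactose-type lectin of type 2 dendritic cells with the near copy Clec10a, had 332 UMIs in control and 122 in induced members (-1.64), each spread over 26 cells. It was lower in members without Cd207 (-2.26) and level in carriers (0.00). Carriers outside cluster 4 gave -2.67. Most control UMIs behind that value lay in the 2 control cells of cluster 2 with Cd207, and the induced library had 0 such cells. Clusters 1 and 3 held 6 and 2 Mgl2 UMIs in control and 2 and 1 in induced cells, too few to measure. Mgl2 was also lower in other kept cells (-3.71). Clec10a went the other way, with 27 and 94 UMIs (1.58).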

How the data were processed

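Single-cell RNA-seq was analysed from 2 libraries, 1 per group. The authors aligned and counted reads with Cell Ranger (3.0.1 in the file header, build mm10 in the submitters' processing notes) and deposited raw UMI counts per gene and barcode, without normalization. The matrices held 4545 control barcodes with 55465594 UMIs and 4264 induced barcodes with 49733560 UMIs. Cells with 201 to 4999 detected genes and under 10% mitochondrial UMIs were kept, which are the limits of the study. The members and gene lists were chosen with earlier results of these data known.

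UMIs were summed per library and population and scaled to CPM (per 1000000 UMIs). Log2 ratios used a pseudocount of 0.5 UMIs and genes with at least 20 UMIs, and past 2-fold means a log2 size over 1. Intervals are Clopper-Pearson for shares, Newcombe for their differences and exact conditional binomial for ratios, and PCR or cell-to-cell variation is not in them. Named genes had at least 200 UMIs over members and were the 10 most extreme on each side, beside the genes of the lists. Ribosomal, mitochondrial, haemoglobin and rule genes were left out of that ranking.

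Members were clustered in scanpy 1.11.5 (1000 variable genes, 20 components, 15 neighbours, Leiden at resolution 1), with no integration. Doublets were not removed. Scrublet's automatic threshold marked 4 control and 5 induced barcodes and was not used, and an alternative left out the 165 and 145 highest-scoring barcodes. Scripts used Python 3.11.15, numpy 2.4.6 and scipy 1.17.1 and were tested on simulated data. Ifi30 and Clec7a were not analysed here.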

Additional observations from a re-analysis of the deposited data

Results flagged for a closer look

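In the induced library, 8 barcodes outside the cell filter met the marker part of the rule, as did 3 in the control library. All 11 had at least 10% mitochondrial UMIs, none had too few or too many genes, and 4 of them carried Cd207. They enter no comparison above.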

How the results depend on the processing

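No paired analysis was possible because each group is 1 library. In all, 647 values were recomputed for 76 results, of which 594 kept their direction and size and 13 changed sign, 12 of them of single genes. Keeping cells under 5% mitochondrial UMIs gave 1.42% members in control, Cd207 in 44.8% and 47.1% of members, list medians of -2.16 (mature dendritic) and -0.87 (macrophage) and 67 genes higher in induced carriers, and 26.5% of the genes past 2-fold in carriers were then higher, against 41.8%. A minimum of 100 UMIs, which tests fewer genes, gave 53 genes higher and 34 lower in members and 15 and 33 in carriers, 31.2% of them higher. A minimum of 50 UMIs raised the genes leading in members from 347 to 924. The mean of CPM over cells gave a type 1 dendritic median of 1.55 and 294 genes higher in carriers. Resolution 2 gave 7 clusters, the largest of 32 cells. Krt5 plus Krt14 under 10, which removed the same 2 cells as leaving out the keratin-high members (a choice made after seeing the data), gave a keratinocyte median of -0.11, Krt17 -0.33, Defb6 -0.40, Sprr1a -0.31 and Ly6d -0.71. A class II sum of at least 10 gave Krt79 -1.04 and Ly6d -0.16. Gdf15 was 0.65 under 5% mitochondrial UMIs and 1.27 without the highest Scrublet scores. Unless fewer genes or cells explain it by construction, the cause was not tested. Genes under 20 UMIs in members could not be measured at this depth.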

Other observations

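Growth factors for Langerhans cells were read in the neighbouring cells of the same libraries. Il34, a Csf1r ligand of the epidermis, had 0 UMIs in members, and stood at 12.3 CPM in control and 16.3 CPM in induced keratinocytes and at 33.6 and 39.3 CPM in fibroblasts. Csf1, the other Csf1r ligand, stood at 500 and 540 CPM in fibroblasts and at 13.6 and 22.4 CPM in keratinocytes. Tgfb1 stood at 494 and 555 CPM in T cells and at 202 and 242 CPM in members. Tslp, an epithelial cytokine that acts on dendritic cells, stood at 146 CPM in control and 75.7 CPM in induced keratinocytes, a log2 difference of -0.95 (-1.03 to -0.87). It was detected in 28.5% and 24.1% of these cells, and 5 cells held 24.9% of its control and 5 held 32.8% of its induced UMIs.

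Mki67, a marker of cycling cells, was detected in 25 control and 18 induced members, of which 21 and 13 carried Cd207, beside 54 of 75 and 53 of 82 among all members. By cluster Mki67 was detected in 40.3% of cells of cluster 1, 21.3% of cluster 2, 21.2% of cluster 3 and 6.67% of cluster 4, at depths that were not equalised. Top2a, another such marker, was detected in only 4 control and 8 induced members, 2 and 3 of them with Cd207. Of 8 measured cell cycle genes, 0 were over 2-fold higher in carriers in both libraries and 1 was over 2-fold lower. Over all genes these shares were 8.75% and 9.75%. Mki67 alone thus does not give the share of cycling cells. Among pattern-recognition receptors, Cd14, the co-receptor for lipopolysaccharide, stood at 161 against 1271 CPM in control and 59.4 against 1966 CPM in induced members with and without Cd207. Tlr9 had 0 UMIs in members and Tlr4 had 0 in control and 4 in induced members.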
